A study of Homo sapiens with 6 samples.

Results

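The genes described here encode the subunits of AMPK, the AMP-activated protein kinase, and the proteins that switch it on. They were chosen by symbol: the catalytic subunits PRKAA1 and PRKAA2, the beta subunits PRKAB1 and PRKAB2, the gamma subunits PRKAG1 and PRKAG2, the kinase STK11 (LKB1) with its partners STRADA and CAB39, and the kinase CAMKK2. These are 10 of the 31762 genes in the deposited count table, and each symbol had 1 row. RNA was sequenced from H460, a human lung carcinoma cell line labelled WT, in 3 control libraries and in 3 libraries from cells exposed for 24 h to 20 µM fluoxetine, a selective serotonin reuptake inhibitor. What the control cells received in place of the drug is not given in the sources used here, and no label says whether the 3 libraries of a group came from separate cultures, so p-values measure the spread between these libraries, which may be technical. H460 is 1 cell line, and changes in the number of cells of a kind cannot be told apart from changes in RNA per cell in such bulk samples.

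AMPK is a trimer of a catalytic alpha, a scaffolding beta and a nucleotide-binding gamma subunit, and it slows anabolic metabolism when AMP and ADP rise. It becomes fully active when a threonine in the activation loop of the alpha subunit is phosphorylated, by LKB1 in complex with the pseudokinase STRAD and the scaffold MO25 (CAB39), or by the calcium-dependent kinase CaMKK2. LKB1 is a tumor suppressor in lung cancer, and H460 is known as a line that carries an inactivating STK11 mutation, which a count of reads per gene does not show. In such cells CaMKK2 is the best known remaining kinase of AMPK. RNA counts measure neither phosphorylation nor kinase activity.

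The catalytic subunits are shown first by the stretch that these kinases act on, because the main difference in the data lay between their genes. The coding sequence from the first to the last conserved motif of the activation loop (5′ to 3′, longest coding transcript of GENCODE release 29, with the codon of the phosphorylated threonine in capitals) reads as follows.
PRKAA1: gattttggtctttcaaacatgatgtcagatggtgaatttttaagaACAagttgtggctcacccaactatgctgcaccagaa
PRKAA2: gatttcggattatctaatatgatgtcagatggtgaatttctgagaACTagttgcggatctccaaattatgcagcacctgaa
Each covers 27 codons, and the threonine is codon 198 of PRKAA1 and codon 172 of PRKAA2 in these transcripts. The stretches differ at 16 of 81 bases and at 0 of 27 encoded residues, so the site of the upstream kinases is identical in the protein while the RNA is distinct. Over the whole coding sequence, 71.9% of 1635 aligned bases were identical between PRKAA1 and PRKAA2, against 70.1% of 807 for PRKAB1 and PRKAB2 and 71.5% of 994 for PRKAG1 and PRKAG2. The longest run of identical bases between any pair of coding transcripts was 24 bases for the alpha genes, 20 for the beta genes and 12 for the gamma genes.

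The libraries held 16157507 to 27823667 counts, and each fluoxetine library held fewer than each control library. A count of 3, the limit that a count of 0 allows, was worth 0.108 to 0.186 counts per 1e6 total counts of the library, for counting error alone. Levels below are in CPM, counts per 1e6 with TMM normalisation. The members had between 64 and 3552 counts in a library, and all 10 passed edgeR's filter on low counts. Control replicate 3 was the deepest library and had the largest distance from a library of its own group, a chi-square per degree of freedom of 21.7 against control replicate 1. Of 7 epithelial and mesenchymal markers of carcinoma cells, 5 (KRT8, KRT18, KRT19, VIM and CDH2) were above 1 CPM in both groups. The list summed to 3618 to 4686 CPM in control libraries and 3184 to 3850 CPM in fluoxetine libraries. KRT18 fell from 512 to 312 CPM (log2 fold change -0.72, edgeR adjusted p = 0.00162), while KRT8 (-0.34), KRT19 (-0.15), VIM (-0.21) and CDH2 (0.06) were not called, and their bearing on the members' values was not tested. EPCAM was at 0.414 and 0.376 CPM (control and fluoxetine) and CDH1 at 0 and 0.0396 CPM. None of the 3 lung airway and alveolar markers with a row (NKX2-1, SFTPC and FOXJ1) reached 1 CPM in either group. Of the neuroendocrine markers, 2 of 3 (CHGA and SYP) did. So did 2 of 4 fibroblast markers (COL1A1 and PDGFRB), whose list summed to 7.75 to 10.4 CPM in control libraries and 7.86 to 8.86 CPM in fluoxetine libraries. The 5 leukocyte, endothelial and liver markers with a row (PTPRC, PECAM1, VWF, ALB and APOA1) were below 1 CPM throughout.

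The comparison asked whether fluoxetine shifted the RNA of a kinase central to lipid and energy metabolism. The catalytic subunit gene PRKAA2 rose 1.73-fold, and the other 9 members did not pass the test. Of the 10 members, 1 was called at an adjusted p-value under 0.05 (edgeR's quasi-likelihood test, Benjamini-Hochberg adjustment over 15646 tested genes), which is 10% against 13.1% of all tested genes (7.76% higher and 5.32% lower with fluoxetine). With a fold change of at least 2 as well, 0 members passed, against 1.39% of all tested genes. At an unadjusted p-value under 0.05 there were 2 members, PRKAA2 and STRADA, or 20% against 28.7% of all tested genes. The fluoxetine and control libraries did not overlap for 3 members, PRKAA2, STRADA and CAB39, all higher with fluoxetine, which is 30% against 31.9% of all tested genes. The median log2 fold change was 0.08 over the members and 0.03 over all tested genes. The shares of members called and of members without overlap were near those of all genes.

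**Figure D1:**
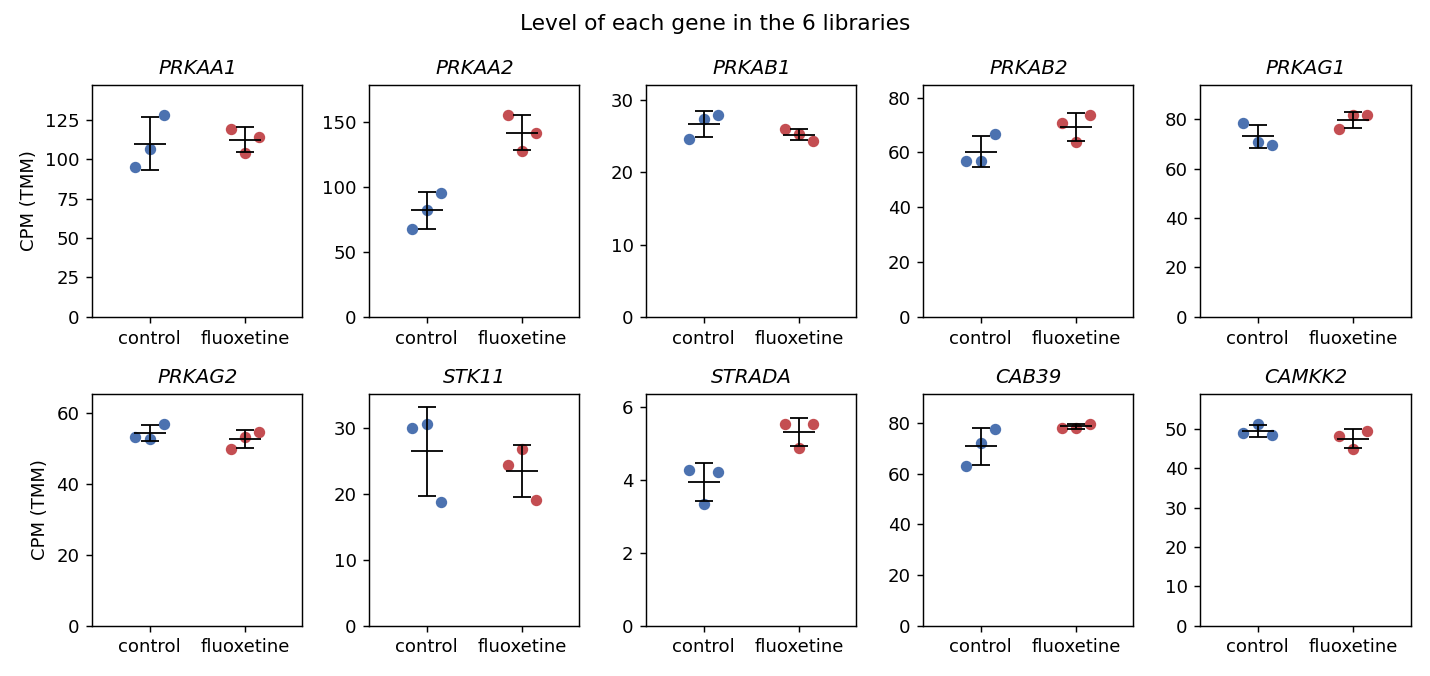
CPM (TMM-normalised, y axes start at 0 and differ between panels) of each gene in the 3 control libraries (blue) and 3 fluoxetine libraries (red), replicates 1 to 3 from left to right. Black bars give the mean and SD. PRKAA2 sits between 67.7 and 95.6 CPM in control libraries and between 128 and 155 CPM in fluoxetine libraries, and the STK11 panel shows control replicate 3 apart from the other controls.

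PRKAA2 (ENSG00000162409, GRCh38 chromosome 1, 56645322 to 56715335, plus strand) encodes the alpha2 catalytic subunit, best known from skeletal muscle and heart. Its level was 67.7, 82.6 and 95.6 CPM in control replicates 1, 2 and 3, and 155, 128 and 142 CPM in fluoxetine replicates 1, 2 and 3. Every fluoxetine library was above every control library. The means were 82.0 ± 13.97 CPM (SD, n = 3) and 142 ± 13.6 CPM (SD, n = 3), which edgeR fitted as 0.79 on the log2 scale (standard error, SE, of 0.12, 95% interval 0.52 to 1.06, adjusted p = 0.00273). On the linear scale the interval ran from 1.43-fold to 2.08-fold. The gene ranked 323 of the 15646 tested genes by p-value. It was called in all 14 alternative fits, and leaving out any 1 library gave log2 fold changes of 0.63 to 0.88. No other annotated gene shared exon bases with PRKAA2.

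PRKAA1 (ENSG00000132356, chromosome 5, 40759379 to 40798374, minus strand) encodes alpha1, the catalytic subunit of most cell types. It stood at 94.9, 106 and 128 CPM in control replicates 1 to 3 and at 119, 104 and 114 CPM in fluoxetine replicates 1 to 3. The fluoxetine values lay inside the range of the controls. The means were 110 ± 16.8 CPM and 112 ± 7.95 CPM (SD, n = 3 each), a log2 fold change of 0.03 (SE 0.11, edgeR adjusted p = 0.872), whose sign turned in 5 of the alternatives. The 95% interval of -0.21 to 0.27 left room for a change of up to 1.21-fold. In the control group PRKAA1 and PRKAA2 were both lowest in replicate 1 and both highest in replicate 3.

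The beta subunits hold the trimer together and carry a glycogen-binding domain. PRKAB2 (ENSG00000131791, chromosome 1, 147155106 to 147172550, minus strand) was at 57.0, 56.8 and 66.7 CPM in control replicates 1 to 3 and at 70.9, 63.6 and 73.6 CPM with fluoxetine. The groups overlapped by control replicate 3. The log2 fold change of 0.20 (SE 0.09, edgeR adjusted p = 0.185) did not pass, with a 95% interval of -0.0048 to 0.41. PRKAB1 (ENSG00000111725, chromosome 12, 119667753 to 119681630, plus strand) was less abundant, at 24.7, 27.5 and 27.9 CPM in control libraries and 26.0, 25.3 and 24.4 CPM in fluoxetine libraries. Its log2 fold change was -0.08 (interval -0.29 to 0.13, edgeR adjusted p = 0.609), and the groups overlapped.

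The gamma subunits bind AMP, ADP and ATP and give the kinase its energy sensing. PRKAG1 (ENSG00000181929, chromosome 12, 49002274 to 49019197, minus strand) was at 78.3, 71.0 and 69.7 CPM in control libraries and at 76.1, 81.6 and 81.6 CPM in fluoxetine libraries. Control replicate 1 lay above fluoxetine replicate 1, so the groups overlapped, and the log2 fold change was 0.13 (interval -0.05 to 0.30, edgeR adjusted p = 0.326). PRKAG1 shares 12.7% of its exon bases with DDN-AS1 on the other strand, which had a mean count of 4.3. PRKAG2 (ENSG00000106617, chromosome 7, 151556111 to 151877125, minus strand) was at 53.3, 52.6 and 56.8 CPM in control libraries and 49.9, 53.2 and 54.6 CPM in fluoxetine libraries. It had a log2 fold change of -0.04 (interval -0.22 to 0.13, edgeR adjusted p = 0.753), the narrowest bounds of the 10 genes after PRKAG1.

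STK11 (ENSG00000118046, chromosome 19, 1177558 to 1228435, plus strand) encodes LKB1. Its level was 29.98, 30.6 and 18.7 CPM in control replicates 1, 2 and 3, and 24.4, 26.9 and 19.2 CPM in fluoxetine replicates 1, 2 and 3. Control replicate 3 was the lowest of the 6 libraries, so the groups overlapped and the spread of the controls, an SD of 25.3% of the mean, was the largest of any member. With all libraries the log2 fold change was -0.17 (SE 0.19, edgeR adjusted p = 0.601), with an interval of -0.58 to 0.25. Without control replicate 3 it was -0.40 (edgeR adjusted p = 0.0416), which raised the number of members called from 1 to 2. That fit also called 3633 genes over the whole table, against 2047 with all libraries. Leaving out any other library gave -0.31 to -0.06 and no call (edgeR adjusted p from 0.335 to 0.935). The call on STK11 thus rested on leaving out that 1 library. STK11 shares 1.72% of its exon bases with CBARP on the other strand.

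STRADA (ENSG00000266173, chromosome 17, 63682336 to 63741986, minus strand) encodes the pseudokinase that holds LKB1 in its active form. It had the fewest reads of the members, 90.5 counts per library on average. The level was 4.26, 3.33 and 4.21 CPM in control libraries and 5.53, 4.88 and 5.53 CPM in fluoxetine libraries, and the groups did not overlap. The log2 fold change of 0.42 (SE 0.16) had an unadjusted p of 0.0252 and an adjusted p of 0.115 from edgeR, and was not called in any alternative. It shares 18.1% of its exon bases with AC046185.1 on the same strand, a gene that has no row in the table used here, so reads there could have been left uncounted and the level is uncertain.

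CAB39 (ENSG00000135932, chromosome 2, 230712845 to 230821075, plus strand) encodes MO25, the scaffold of the LKB1 complex. It was at 63.1, 71.9 and 77.5 CPM in control libraries and at 78.1, 78.2 and 79.6 CPM in fluoxetine libraries. The lowest fluoxetine library lay above the highest control library by less than the spread of the controls, an SD of 7.27 CPM. The log2 fold change was 0.15 (interval -0.04 to 0.34, edgeR adjusted p = 0.299). The pseudogene CAB39P1 had a mean count of 4.7.

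CAMKK2 (ENSG00000110931, chromosome 12, 121237691 to 121298308, minus strand) encodes the calcium-dependent kinase of the AMPK activation loop. Its SD was 3.09% of the mean in control and 5.13% in fluoxetine libraries, and its level was 49.1, 51.3 and 48.4 CPM in control libraries and 48.3, 44.8 and 49.6 CPM in fluoxetine libraries. The groups overlapped. The log2 fold change was -0.06 (SE 0.08, edgeR adjusted p = 0.669), and the 95% interval of -0.24 to 0.12 bounded a rise at 1.09-fold and a fall at 0.846 of the control level.

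**Figure D2:**
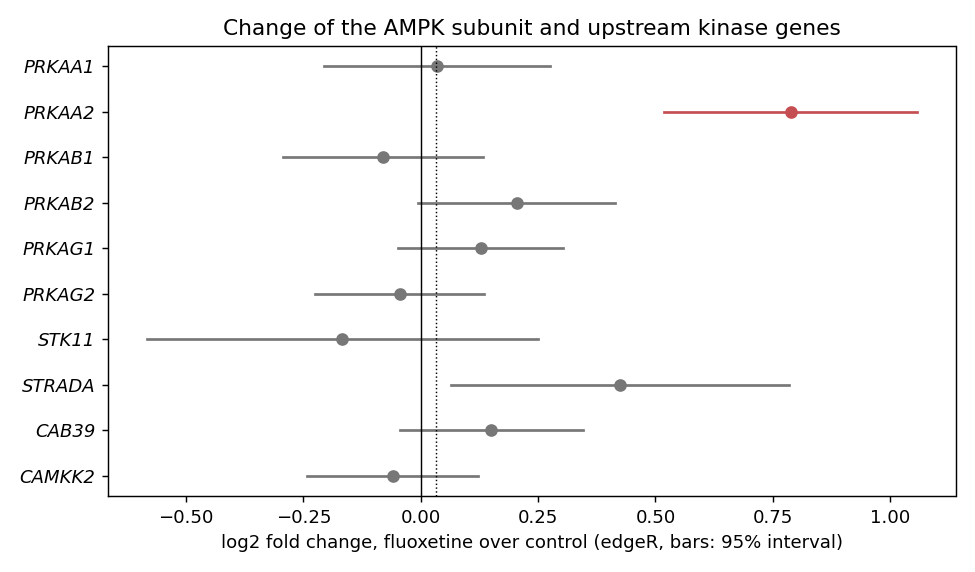
Log2 fold change of fluoxetine over control for each of the 10 genes (points, edgeR) with its 95% interval (bars). Red marks an adjusted p-value under 0.05, the solid line is 0 and the dotted line is the median of all tested genes, 0.03. PRKAA2 at 0.79 is the only red point, and the interval of STK11 is the widest.

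Since the pairs of subunit genes code for alternatives in the same trimer, their balance was compared within each library, where it does not depend on normalisation. Per kilobase of exon, PRKAA2 gave 33.4%, 35.3% and 34.4% of the alpha transcript in control replicates 1 to 3 and 47.7%, 46.4% and 46.6% in fluoxetine replicates 1 to 3. The means were 34.3% ± 0.953 and 46.9% ± 0.705 (SD, n = 3 each), and the log2 ratio of PRKAA2 to PRKAA1 moved from -0.94 ± 0.061 to -0.18 ± 0.041 (SD, n = 3 each), a difference of 0.76. The difference was larger than the spread between libraries of either group. Which alpha gene gave more transcript with fluoxetine depends on the length used. Per kilobase of coding sequence the control log2 ratio was -0.33, so a rise of this size put PRKAA2 above PRKAA1. In CPM without length, the fluoxetine means were 142 for PRKAA2 and 112 for PRKAA1. PRKAB2 gave 72.6%, 70.3% and 73.2% of the beta transcript in control libraries and 75.7%, 74.2% and 77.5% in fluoxetine libraries, a difference of 0.29 in the log2 ratio. The share of PRKAG2 in the gamma transcript was 29.7%, 31.5% and 33.6% in control libraries and 28.9%, 28.8% and 29.4% in fluoxetine libraries, a difference of -0.17 in the log2 ratio. The groups did not overlap for any of the 3 ratios, each with a two-sided exact permutation p of 0.1. This is the smallest p that 3 against 3 libraries can give. Among single genes, 31.9% of those tested had no overlap, and that share was not obtained for ratios. The gamma log2 ratios lay close, at -1.24 in control replicate 1 and -1.27 in fluoxetine replicate 3, with a control SD of 0.131. So did the beta log2 ratios, at 1.45 in control replicate 3 and 1.53 in fluoxetine replicate 2. The beta SDs were 0.108 in control and 0.131 in fluoxetine libraries. The alpha shift was the largest of the 3.

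The summed alpha transcript, in CPM per kilobase of exon, was 25.5 ± 4.03 in control and 32.3 ± 2.66 in fluoxetine libraries (SD, n = 3 each). The groups overlapped in this sum, with an exact permutation p of 0.2. The beta sum was 15.3 ± 1.22 and 16.7 ± 0.913, and the gamma sum 25.5 ± 0.999 and 26.9 ± 1.11, each with an exact permutation p of 0.2. After Benjamini-Hochberg adjustment over these 6 comparisons all p-values were 0.2 by the exact permutation test.

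**Figure D3:**
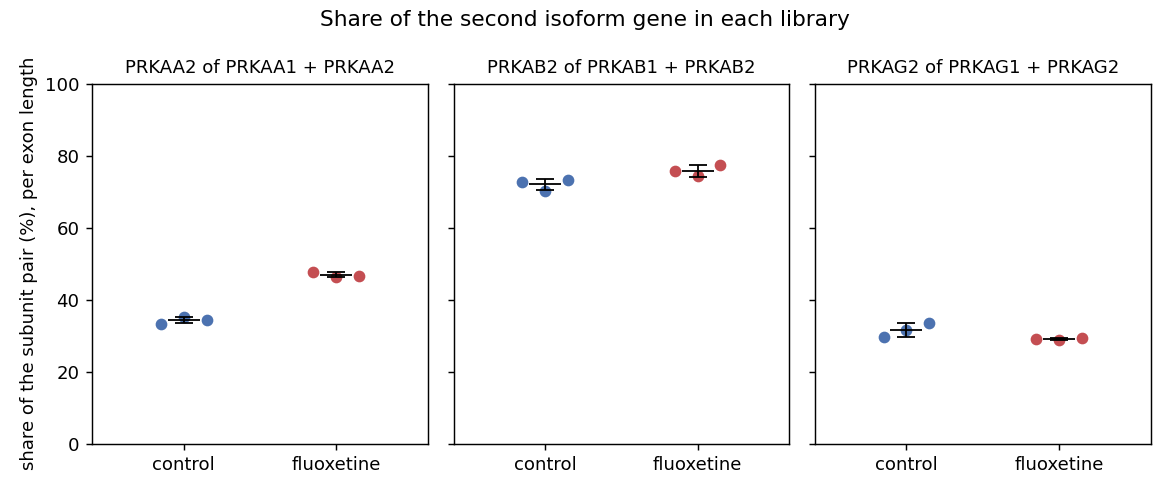
Share of PRKAA2 in the alpha pair, PRKAB2 in the beta pair and PRKAG2 in the gamma pair, in percent of the pair's CPM per kilobase of exon, for 3 control (blue) and 3 fluoxetine libraries (red). Black bars give the mean and SD. The PRKAA2 share goes from 34.3% to 46.9%, and the other shares differ by 3.79 and -2.56 percentage points. The shares depend on the length used.

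Levels of different genes are comparable only per length. Per kilobase of exon in control cells, the order was PRKAG1 (17.4), PRKAA1 (16.7), CAB39 (13.2), PRKAB2 (11.02), PRKAA2 (8.76), PRKAG2 (8.05), CAMKK2 (7.15), PRKAB1 (4.27), STK11 (3.06) and STRADA (0.363 CPM per kilobase). The ranges over libraries overlapped between PRKAG1 and PRKAA1, between CAB39 and PRKAB2 and between PRKAA2 and PRKAG2, so these neighbours were not separated. The range of PRKAA2 (7.24 to 10.2) also overlapped that of CAMKK2 (6.98 to 7.40). The lowest control value of PRKAA1 (14.465) was barely above the highest of CAB39 (14.463). With fluoxetine PRKAA2 stood at 15.1 CPM per kilobase, between PRKAA1 (17.1) and CAB39 (14.7), and its range overlapped both. The order of the other 9 genes was the same in both groups. Per kilobase of coding sequence the control level was highest for PRKAB2 (73.8 CPM per kilobase) and CAB39 (68.2), so the ranks depend on the length used.

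The genes whose profile was most like that of PRKAA2, by the root mean square difference of centred log2 CPM over 6 libraries, were B3GNT5 (0.05), BHLHB9 (0.05) and HBP1 (0.06). Their log2 fold changes were 0.72, 0.75 and 0.75. For STRADA, the member with the next smallest p-value, they were GSTA4 (0.02), AC022107.1 (0.05) and DLGAP1-AS2 (0.05), none of them called (adjusted p from 0.0660 to 0.103 by edgeR). These are the closest among all tested genes and are given as a description.

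Promoters from 250 bases before to 50 after the start were held for 9 of the 10 members in RefSeq (GRCh38.p14). The E-box CACGTG, a core motif of MiT/TFE and clock factors, was in 0 of 9 and in 7.43% of 27305 promoters, and the FOXO motif TGTTTAC, searched on both strands as well, was in 1 of 9, that of STK11, and in 3.41% of all promoters. The upstream 250 bases were rich in G and C, 83.2% in PRKAA2 and 80.8% in PRKAA1, against a median of 58.0% over all promoters.

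Around the members, 4 tested genes encode other kinases of the activation loop or paralogs of the LKB1 partners and of CAMKK2. Of these, CAMKK1, STRADB, MAP3K7 and CAB39L, 0 passed in edgeR, 0 in DESeq2 and 0 in limma-voom, against 13.1% of all tested genes in edgeR, and 1 had an unadjusted p under 0.05, against 28.7%. The median log2 fold change of the 4 was -0.01. The gene with an unadjusted p under 0.05 was CAMKK1, the paralog of CAMKK2, with a log2 fold change of 0.24 (edgeR adjusted p = 0.0600). It was singled out after its value was seen. Among 12 kinases of the AMPK family that LKB1 activates, 1 rose, 1 fell and 10 were not called, 16.7% called against 13.1% of all tested genes, with a median log2 fold change of 0.10. NUAK2 fell from 24.3 ± 2.11 to 12.6 ± 1.12 CPM (SD, n = 3 each; log2 fold change -0.94, edgeR adjusted p = 7.89e-04). SIK2 rose by 0.40 on the log2 scale (edgeR adjusted p = 0.0416) and lost its call with the libraries thinned to equal depth (adjusted p = 0.0568) and without control replicate 1, control replicate 2, fluoxetine replicate 1 or fluoxetine replicate 3 (adjusted p from 0.145 to 0.226 by edgeR).

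Of 22 tested regulators of AMPK, 4 rose and 4 fell, 36.4% against 13.1% of all tested genes, with a median log2 fold change of -0.09. The rises were led by FNIP1 (1.58), FLCN (1.16) and FNIP2 (0.74), the folliculin complex that binds AMPK at the lysosome, with adjusted p-values from edgeR of 4.75e-05, 5.29e-05 and 0.00548. FLCN shares 11.9% of its exon bases with AC055811.2 on the same strand. HSP90AB1, a chaperone, fell by 0.35 on the log2 scale. Without fluoxetine replicate 1, FNIP2 and HSP90AB1 lost their calls (edgeR adjusted p of 0.0518 and 0.0580). Of 32 AMPK substrates, 6 rose and 1 fell (21.9%, median 0.20), and the rises included PFKFB2 of glycolytic control (1.96), SREBF2 (0.77) and ACACA of fatty acid synthesis (0.76). Of 13 tested genes of PGC-1alpha and of oxidative and glucose metabolism, 2 rose and 3 fell (38.5%, median 0.15). The coactivator PPARGC1A rose from 8.06 ± 0.705 to 21.7 ± 0.746 CPM (SD, n = 3 each; log2 fold change 1.42, edgeR adjusted p = 3.72e-05), and PDK4, a brake on pyruvate oxidation, by 0.99, while NRF1, HK2 and TFAM fell by 0.41, 0.31 and 0.28. These 3 falls were each lost without control replicate 2, fluoxetine replicate 1 or fluoxetine replicate 3 (edgeR adjusted p from 0.0628 to 0.117), and those of HK2 and TFAM also without fluoxetine replicate 2 or with library size only. In the deposited KEGG annotation of AMPK signaling, members left out, 18 of 88 tested genes rose and 2 fell (22.7%, median 0.09). The rises included the desaturase gene SCD (1.84), PFKFB2, PPARGC1A, PFKFB4 (1.24) and FASN (1.27). The study drew this pathway from these samples, so its count is not independent evidence. Of its 20 called genes, 5 stand in the lists above as well. The lists above were chosen with earlier results of these data known, so their shares are not independent evidence either. The number of regulators called was 5 without control replicate 1 or 2, 2 without fluoxetine replicate 1 and 4 without fluoxetine replicate 3, against 8. Called substrates numbered 4 without fluoxetine replicate 1 and 13 without control replicate 3, against 7. For oxidative and glucose metabolism it was 2 without control replicate 2, fluoxetine replicate 1 or fluoxetine replicate 3, against 5. It was 3 without fluoxetine replicate 2. For the KEGG pathway it was 11 without control replicate 2 and 10 without fluoxetine replicate 1, against 20.

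**Figure D4:**
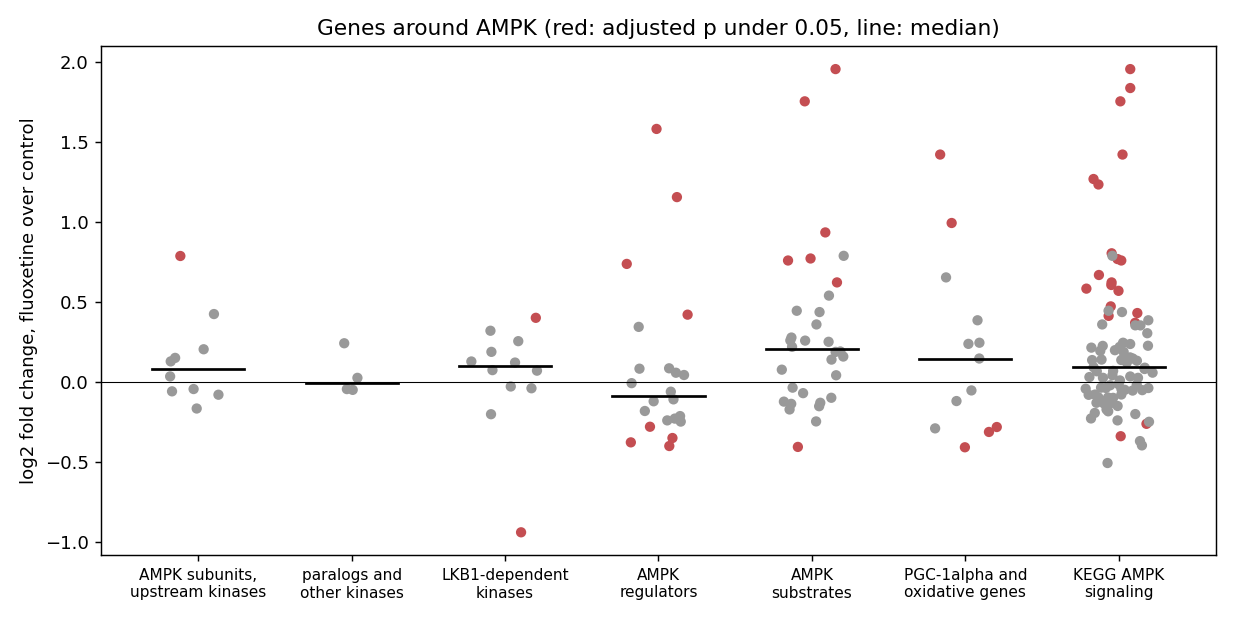
Log2 fold change of fluoxetine over control for the 10 AMPK subunit and upstream kinase genes and for the tested genes of 6 lists around them. Red points have an adjusted p-value under 0.05 (edgeR), grey points do not, and the horizontal line is the median of each list. PRKAA2 is the single red point in the first column, while 18 genes of the KEGG pathway are red above 0.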

How the data were processed

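RNA sequencing of 3 control and 3 fluoxetine-treated H460 libraries was analysed. The authors deposited raw read counts per gene and library, not normalised or pooled. Columns of the authors' own comparison (a log2 ratio, its p-value and that value after adjustment) stand beside them and were not used. The submitters' processing notes name fastp 0.20.0, HISAT2 2.1.0, HTSeq 0.10.0 and DESeq2 1.18.1 without their roles. Whether counting used strand is not given in the sources used here. Genome build is not named, but 96.8% of the 31635 genes shared with GENCODE release 29 (GRCh38) had the same start and end there.

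Counts were tested with edgeR 4.0.16 (R 4.3.3): TMM, filterByExpr, quasi-likelihood test, no covariate, two-sided, Benjamini-Hochberg adjustment over 15646 genes. Standard errors are the log2 fold change divided by the square root of the F statistic, and 95% intervals use the fit's degrees of freedom. The script was tested on simulated data. Lengths are the union of GENCODE exons. Isoform ratios and sums used exact permutation over libraries (scipy 1.17.1). Depth was 16157507 to 27823667 counts, and replicates differed by more than sampling noise (chi-square per degree of freedom of at least 3.49).

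All members are named. Of each further list, up to 5 called genes by p-value, and called genes whose groups did not overlap at a fold change of at least 2, could be named, with 3 genes of the most similar profile for each of 2 members. The members and lists were chosen with earlier results of these data known. The alternatives were DESeq2 1.42.0, limma-voom 3.58.1, RLE size factors, library size only, no filter, at least 10 counts in every library, a replicate block, thinning to 16157507 counts, other lengths, and leaving out each library. Protein measurements were not analysed here. Some list genes that this rule would name are not reported here.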

Additional observations from a re-analysis of the deposited data

How the results depend on the processing

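PRKAA2 was called in all 14 fits. Of the 140 alternative values of the members' log2 fold changes, 134 kept direction and side of the threshold. PRKAA1, not called in any fit, turned to -0.0018 without the filter on low counts and ranged from -0.10 to 0.13 when each library was left out. The number of members called was 1 in all 8 alternatives that kept the 6 libraries and 1 to 2 when each library was left out, 2 without control replicate 3 through STK11. The number of all genes called ranged from 572 (without fluoxetine replicate 1) to 3633 (without control replicate 3) against 2047 (1191 without control replicate 1, 919 without control replicate 2, 935 without fluoxetine replicate 3), and was 4018 with the replicate block. Same-numbered libraries had correlated deviations of 0.0297 to 0.392, and 2 of 3 fluoxetine libraries correlated best with their own number. These values do not settle whether the numbers mark pairs. No label names pairs, so the main test used no block. The block changed no member's call. It gave 16 substrates and 1 paralog or other upstream kinase (0 in the main test). Library size only also gave 1 of the latter, and 3 genes of oxidative and glucose metabolism. Thinning left 1 LKB1-dependent kinase. With each library left out the lists ranged from 1 to 2 LKB1-dependent kinases, 2 to 10 regulators and 4 to 13 substrates. They ranged from 2 to 6 genes of oxidative and glucose metabolism and from 10 to 30 KEGG genes. The change of the log2 gamma sum ranged from 0.015 to 0.084. With coding length the control log2 ratio was -0.33 for PRKAA2 to PRKAA1 and 1.19 for PRKAB2 to PRKAB1, and with no length -0.42, 1.17 and, for PRKAG2 to PRKAG1, -0.43. A fixed length per gene cancels in the change of these ratios between groups, so that change could not depend on length. No member's symbol repeated, so summing rows was not run. The cause of these shifts was not tested. Depth limits STRADA most, at 64 to 117 counts.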
